A study of Mus musculus with 12 samples.

Results

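The sodium pump of the cell membrane, the Na,K-ATPase, is built from a catalytic alpha subunit and a glycosylated beta subunit, and in many tissues a small single-span protein of the FXYD family joins them. The beta subunit carries the newly made pump to the membrane, and FXYD proteins tune its affinity for sodium or potassium. The pump restores the ion gradients that spikes and transmitter uptake run down, and midbrain dopaminergic neurons, which fire spontaneously, need that restoration continuously. Described here are 3 beta subunit genes (Atp1b1, Atp1b2 and Atp1b3) and 3 FXYD genes (Fxyd1, Fxyd6 and Fxyd7), chosen by symbol. All 6 were found among the 23079 genes counted, and all 6 had enough counts to be tested.

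RNA of dopaminergic neurons was taken from the substantia nigra pars compacta (SNpc) and from the ventral tegmental area (VTA) of C57BL/6 mice. The labels call the samples TRAP samples, read here as ribosome-bound RNA pulled down through a tagged ribosomal protein. The sources used here do not give the transgene or its promoter, any treatment, the age of the mice or how many were pooled for a library. Of the 12 columns of read counts, SNpc columns 4 and 5 were identical, as were VTA columns 2 and 3; each pair differed by less than the sampling noise and was counted as 1 sample, which left 5 SNpc and 5 VTA libraries. The labels do not state whether the 5 libraries of each region are from different mice; p-values therefore reflect only library-to-library spread, part or all of which may be technical.

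SNpc libraries held 62951005 to 65959443 counts and VTA libraries 62356964 to 81393907. Markers of dopaminergic neurons were abundant in both regions, with a summed level of 9661 to 14062 CPM (read counts scaled to library size, with TMM normalization) in SNpc and 4927 to 8074 CPM in VTA. All 8 of these markers were higher in SNpc. The 10 astrocyte markers summed to 45.6 to 151 CPM in SNpc and 108 to 142 CPM in VTA, and 3 of the 10 were higher in VTA, 0 in SNpc. The 9 oligodendrocyte markers summed to 287 to 1394 CPM in SNpc and 723 to 910 CPM in VTA, with 1 of 9 higher in VTA and 0 in SNpc. In both glial lists SNpc library 4 stood far above the other SNpc libraries, which reached at most 56.8 CPM for astrocytes and 514 CPM for oligodendrocytes. The most abundant markers were Slc4a4 (mean 24.6 CPM in SNpc and 52.9 CPM in VTA) for astrocytes and Mbp (mean 152 CPM in SNpc and 248 CPM in VTA) for oligodendrocytes, beside Slc6a3 for dopaminergic neurons (mean 5256 CPM in SNpc and 2499 CPM in VTA). No marker of either list was at 0 throughout. Long transcripts also took a larger share of the VTA libraries: the slope of log2 CPM on log2 transcript length, relative to the mean of all libraries, was -0.187 to -0.0398 in SNpc and 0.0703 to 0.236 in VTA (exact permutation p = 0.00794, the smallest that 5 against 5 libraries allow; adjusted p = 0.0254 over 16 library measures).

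FXYD proteins are named after a short stretch of amino acids, phenylalanine, any residue, tyrosine and aspartate, at which they touch the pump. The codons of that stretch, in capitals with flanking coding sequence, differ in sequence between the 3 FXYD genes. The sequences are from GENCODE transcripts (build GRCm38, which mm10 denotes), 5′ to 3′ on the coding strand.
Fxyd1: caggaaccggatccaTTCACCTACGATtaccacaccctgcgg
Fxyd6: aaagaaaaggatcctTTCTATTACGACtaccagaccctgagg
Fxyd7: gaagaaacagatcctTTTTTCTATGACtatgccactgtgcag
Of 42 bases, Fxyd1 and Fxyd6 shared 31, Fxyd6 and Fxyd7 shared 27, and Fxyd1 and Fxyd7 shared 26. Each window crosses an intron. In the genome they span chr7:31053458-31053917 (minus strand, Fxyd1), chr9:45390648-45390793 (plus strand, Fxyd6) and chr7:31045011-31047397 (minus strand, Fxyd7).

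Atp1b1 and Atp1b3 were higher in SNpc, and Atp1b2 and Fxyd6 were higher in VTA. The values of Fxyd7 and Fxyd1 did not pass the test. Of the 6 genes, 4 were called (an adjusted p below 0.05 in edgeR's quasi-likelihood fit), 2 in each direction. Among all 15685 genes tested, 38.2% were called, 17.8% higher in SNpc and 20.4% higher in VTA. The median size of the log2 fold change was 0.43 over the 6 genes and 0.44 over all genes tested.

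**Figure D1:**
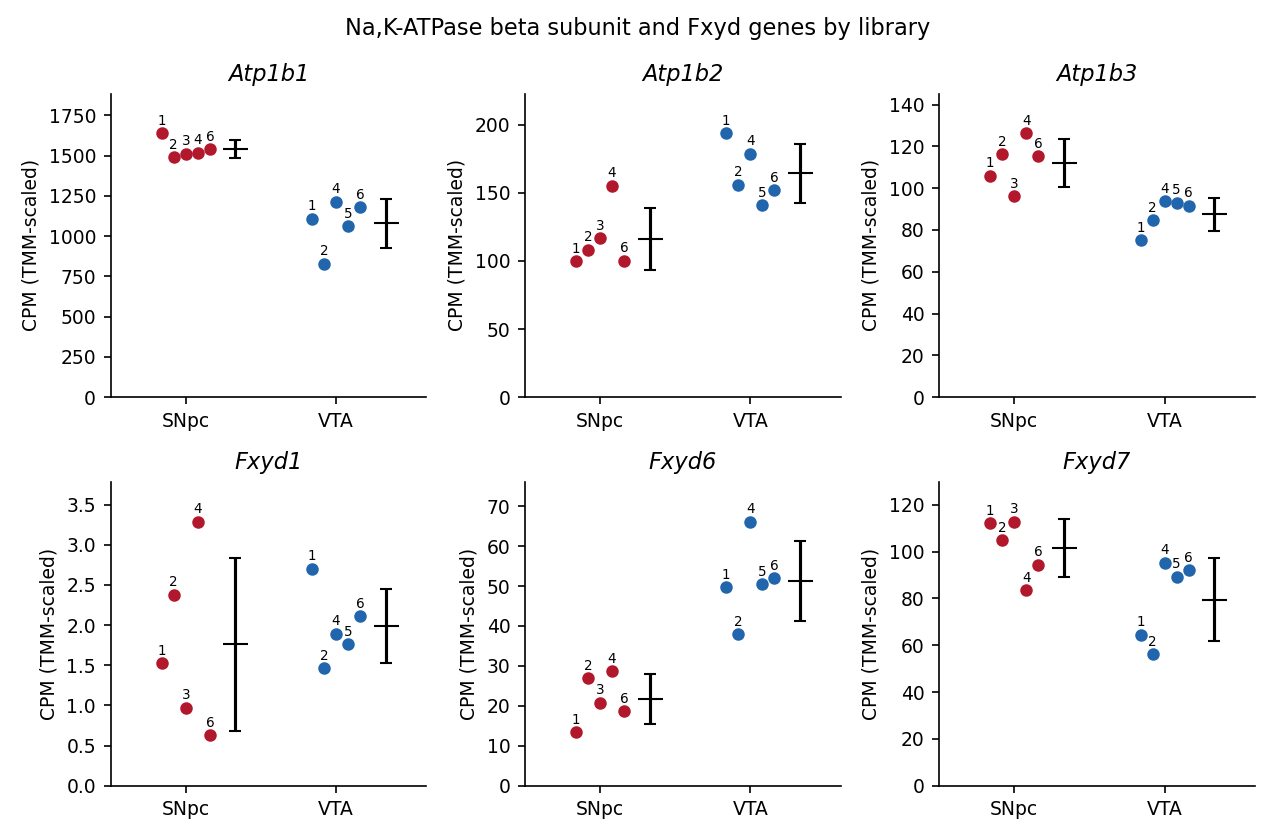
TMM-scaled CPM (vertical axes, from 0) of the 6 genes in each library, with the library number above each point and the mean and SD at the right of each group (n = 5 each). SNpc stands left and VTA right; the groups are apart for Atp1b1, Atp1b3 and Fxyd6, and SNpc library 4 lies among the VTA libraries for Atp1b2.

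Atp1b1 encodes the beta 1 subunit, the commonest partner of the pump in neurons. It lies on mm10 chromosome 1, 164437109 to 164458355, minus strand (Entrez 11931). It stood at 1639, 1490, 1512, 1517 and 1542 CPM in SNpc libraries 1, 2, 3, 4 and 6, and at 1109, 829, 1215, 1062 and 1179 CPM in VTA libraries 1, 2, 4, 5 and 6. Every SNpc library was above every VTA library, and VTA library 2 was the lowest. The means were 1540 ± 58.4 CPM in SNpc and 1079 ± 152 CPM in VTA (SD, n = 5 each), which gave a log2 fold change of 0.51 (edgeR adjusted p = 5.07e-04) with a standard error of 0.10, or 1.43-fold. By mean CPM it was the 56th most abundant of the 15685 genes. Its spread between libraries was 3.79% of the mean in SNpc and 14.1% in VTA. Exons of Nme7, a gene on the opposite strand, overlap 18.7% of its exon bases, and the strand setting of the counting is unknown, so the Atp1b1 count is uncertain there. Nme7 itself was at 215 ± 21.1 CPM in SNpc and 145 ± 20.2 CPM in VTA (SD, n = 5 each), in the same direction (log2 fold change 0.57, edgeR adjusted p = 5.08e-04).

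The 250 bases before the start of Atp1b1 (RefSeq, build GRCm38.p6, chr1:164458356-164458605, minus strand) are shown beside those of Fxyd6 (chr9:45369935-45370184, plus strand), since these 2 genes had the largest called changes toward SNpc and toward VTA. Capitals mark matches on either strand to 4 motifs, of which none overlapped another here. The GC box was searched as GGGCGG. The CCAAT box was searched as those letters. The TATA box was searched as TATAAA. The E-box was searched as CACGTG.
Atp1b1: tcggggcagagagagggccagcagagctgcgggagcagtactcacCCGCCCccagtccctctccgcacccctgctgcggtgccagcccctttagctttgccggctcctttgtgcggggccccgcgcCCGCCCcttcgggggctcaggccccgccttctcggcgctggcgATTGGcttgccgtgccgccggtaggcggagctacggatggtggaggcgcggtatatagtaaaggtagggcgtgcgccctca
Fxyd6: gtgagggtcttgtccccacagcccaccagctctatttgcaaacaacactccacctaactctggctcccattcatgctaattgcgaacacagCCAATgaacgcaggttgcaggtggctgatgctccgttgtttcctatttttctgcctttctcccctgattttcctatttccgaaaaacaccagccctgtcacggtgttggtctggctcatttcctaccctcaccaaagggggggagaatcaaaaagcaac
The Atp1b1 window held 2 GC boxes, 1 CCAAT box and 24 CG dinucleotides at 70.4% G and C. The Fxyd6 window held 0 GC boxes, 1 CCAAT box and 5 CG dinucleotides at 50.4% G and C. Over all 32851 windows of this length in the RefSeq table, 32.7% held a GC box, 33.8% a CCAAT box, 12.4% a TATA box and 6.02% an E-box, and the medians were 6 CG dinucleotides and 52.4% G and C. These are descriptions of letters, not of factor binding.

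Atp1b3 encodes the beta 3 subunit, made in many tissues. The gene is on chromosome 9, 96332655 to 96364442, minus strand (Entrez 11933). It was at 106, 116, 96.2, 126 and 115 CPM in SNpc libraries 1, 2, 3, 4 and 6, and at 75.0, 84.7, 93.7, 93.1 and 91.6 CPM in VTA libraries 1, 2, 4, 5 and 6. The groups were apart, though SNpc library 3 was close to VTA library 4. The means were 112 ± 11.4 CPM in SNpc and 87.6 ± 7.92 CPM in VTA (SD, n = 5 each), which gave a log2 fold change of 0.35 (edgeR adjusted p = 0.0110) with a standard error of 0.10. With the trend on transcript length and GC content removed, the log2 fold change fell to 0.10 and the call ended (edgeR adjusted p = 0.431). With glial markers as a covariate it was 0.40 (edgeR adjusted p = 0.0139).

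Atp1b2 encodes the beta 2 subunit, first described in mouse as an adhesion molecule on glia (AMOG) and since found in neurons as well. It lies on chromosome 11, 69599736 to 69605942, minus strand (Entrez 11932). It was at 100.0, 108, 117, 155 and 100.1 CPM in SNpc libraries 1, 2, 3, 4 and 6, and at 194, 156, 179, 141 and 152 CPM in VTA libraries 1, 2, 4, 5 and 6. Of the SNpc libraries, 4 lay below every VTA library, and library 4 lay within the VTA range. The means were 116 ± 23.0 CPM in SNpc and 164 ± 21.6 CPM in VTA (SD, n = 5 each), which gave a log2 fold change of -0.50 (edgeR adjusted p = 0.00531) with a standard error of 0.13, or 1.41-fold higher in VTA. In bulk RNA, fewer cells of a type and less RNA per cell cannot be told apart.

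In both regions, the libraries highest for Atp1b2 were also the highest for summed astrocyte markers. SNpc library 4, the highest of its region for Atp1b2, had 151 CPM of summed astrocyte markers and 1394 CPM of summed oligodendrocyte markers. It was also the highest SNpc library for summed markers of GABAergic neurons (358 CPM) and of glutamatergic neurons (87.7 CPM). For dopaminergic neuron markers it was the lowest SNpc library, at 9661 CPM. VTA libraries 1 and 4, the highest for Atp1b2 there, had 142 CPM each of astrocyte markers, against 108 to 115 CPM in the other VTA libraries. With glial markers as a covariate the log2 fold change was -0.29, smaller and still called (edgeR adjusted p = 0.0443), against -0.50 without it. Without SNpc library 4 it was -0.57 (edgeR adjusted p = 9.09e-04). The mean log2 CPM of astrocyte markers was 2.07 in SNpc and 3.01 in VTA (exact permutation adjusted p = 0.0952). That of oligodendrocyte markers was 5.01 in SNpc and 5.55 in VTA (exact permutation adjusted p = 0.254). Microglia markers stood at 0.644 in SNpc and 1.09 in VTA (exact permutation adjusted p = 0.472). Their summed level was highest in SNpc library 4 (68.0 CPM) and, within VTA, in library 2 (73.8 CPM), where Atp1b2 was at 156 CPM. The part of glial or other neuronal RNA in the Atp1b2 difference was not tested.

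**Figure D2:**
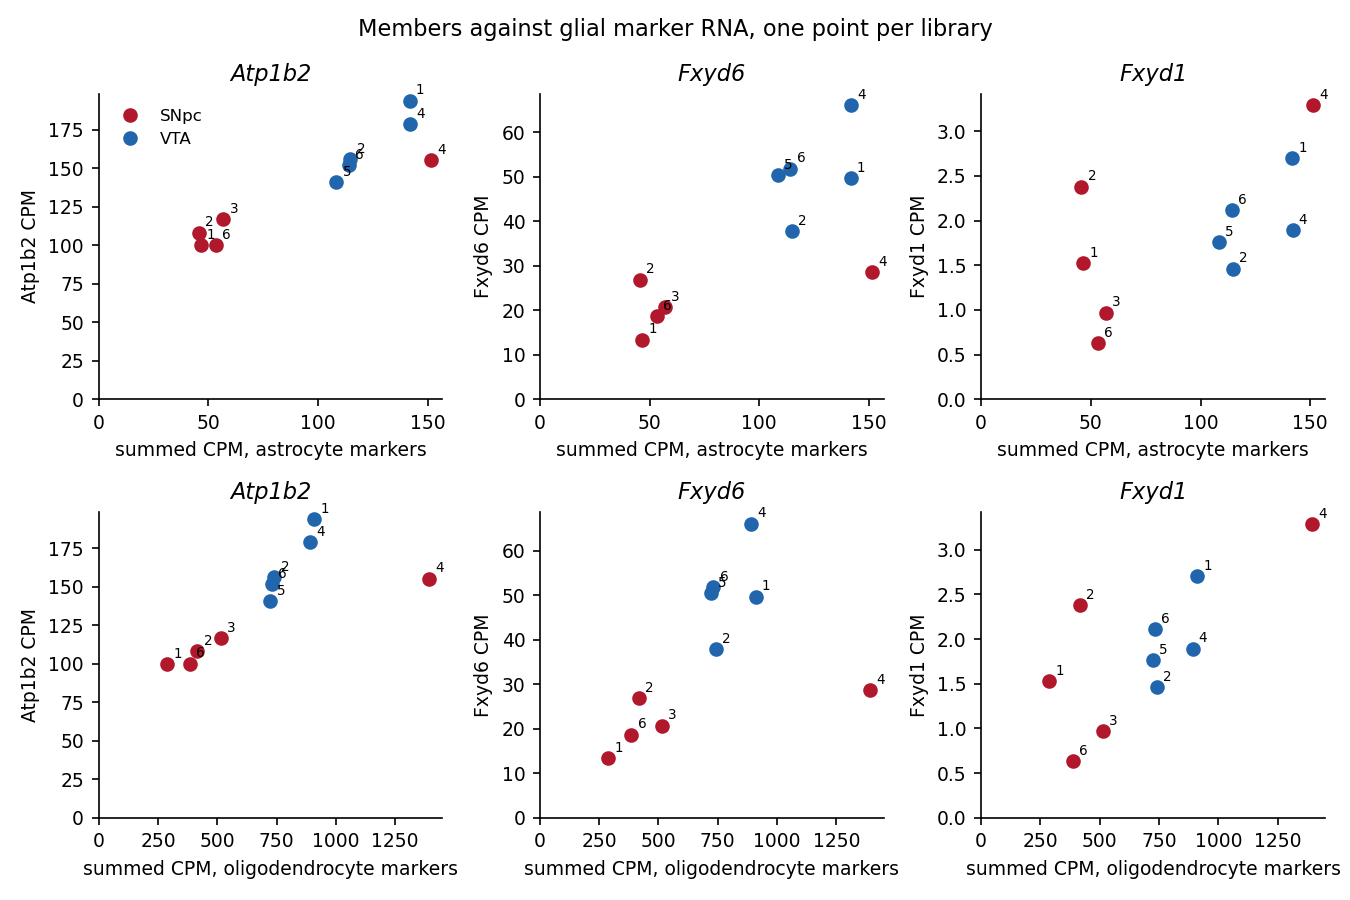
CPM of Atp1b2, Fxyd6 and Fxyd1 (vertical axes) against the summed CPM of astrocyte markers (upper row) and oligodendrocyte markers (lower row), 1 point per library, numbered. For Atp1b2, SNpc library 4 lies at 155 CPM and 151 CPM of astrocyte markers, beside VTA libraries; for Fxyd6 it lies at 28.7 CPM, the highest of SNpc and below the VTA libraries.

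The beta subunit genes had very unequal levels. On a per-length scale (CPM per kilobase of the longest coding transcript), Atp1b1 stood at 597 ± 22.6 in SNpc and 418 ± 58.8 in VTA (n = 5 each, errors are SD). Atp1b3 stood at 56.2 ± 5.72 in SNpc and 43.9 ± 3.97 in VTA, and Atp1b2 at 40.8 ± 8.08 in SNpc and 57.8 ± 7.59 in VTA. On this scale Atp1b3 was above Atp1b2 in all 5 SNpc libraries and below it in all 5 VTA libraries. That order depends on the length used: with the union of annotated exons as the length, Atp1b3 was also above Atp1b2 in VTA libraries 5 and 6. Atp1b4, the remaining beta-type gene, which in mammals is known as a muscle nuclear membrane protein, had 0 counts in all 10 libraries, which allows up to 0.00448 CPM over their summed counts. As a share of beta subunit RNA per length, Atp1b1 made up 86.0% ± 1.70 in SNpc and 80.3% ± 2.07 in VTA, and Atp1b2 5.89% ± 1.14 in SNpc and 11.2% ± 1.64 in VTA (n = 5 each, errors are SD). Atp1b3 took 8.10% ± 0.811 in SNpc and 8.54% ± 1.18 in VTA. The ratio of Atp1b1 to Atp1b2 per length ran from 10.8 to 18.1 in SNpc and from 5.85 to 8.55 in VTA, without overlap. These shares and ratios are descriptions and were not tested.

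**Figure D3:**
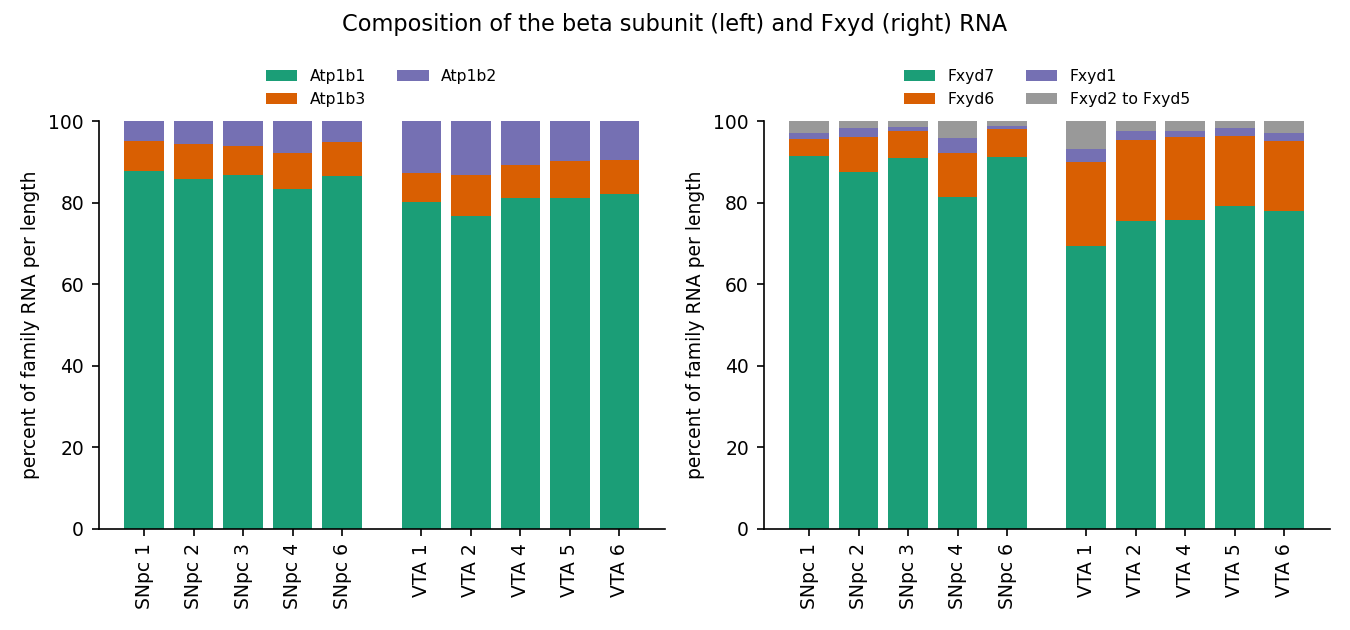
Share of each gene in the RNA per length of its family, in percent, for each library, with SNpc bars left of VTA bars. Atp1b1 fills 83.3% to 87.8% of the beta subunit bars in SNpc and 76.7% to 82.1% in VTA, and Fxyd6 fills 4.24% to 10.8% of the Fxyd bars in SNpc and 17.0% to 20.7% in VTA.

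Fxyd6, or phosphohippolin, is a pump regulator of brain and inner ear. The gene is on chromosome 9, 45370185 to 45396159, plus strand (Entrez 59095), next to Fxyd2. It showed the largest difference of the 6. Its values were 13.4, 26.9, 20.8, 28.7 and 18.7 CPM in SNpc libraries 1, 2, 3, 4 and 6, and 49.7, 37.9, 66.1, 50.5 and 51.9 CPM in VTA libraries 1, 2, 4, 5 and 6. Every VTA library was above every SNpc library; such separation was found for 3 of the 6 genes and for 26.6% of all genes tested, 12% with SNpc higher and 14.6% with VTA higher. The means were 21.7 ± 6.20 CPM in SNpc and 51.2 ± 10.0 CPM in VTA (SD, n = 5 each), which gave a log2 fold change of -1.24 (edgeR adjusted p = 9.73e-05) with a standard error of 0.19, or 2.36-fold higher in VTA. With glial markers as a covariate the change was -1.02 (edgeR adjusted p = 0.00139), and with the length and GC trend removed it was -1.44 (edgeR adjusted p = 1.41e-05). SNpc library 4, which had the most glial marker RNA of its region, was also the highest SNpc library for Fxyd6. The part of glial RNA in the Fxyd6 difference was not tested. VTA libraries also held more RNA of glutamatergic neuron markers, with a summed level of 18.6 to 87.7 CPM in SNpc and 93.1 to 131 CPM in VTA. Of those 3 markers, 2 were higher in VTA, 0 in SNpc, and 0 were undetected throughout. The counts do not give the cells this marker RNA came from, and its part in the Fxyd6 difference was not tested. Oligodendrocyte precursor markers summed to 14.1 to 38.4 CPM in SNpc and 32.8 to 52.5 CPM in VTA, with 3 of 5 higher in VTA, 0 in SNpc and 0 undetected throughout, and their part was not tested either.

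Fxyd7 encodes a brain FXYD protein that lowers the potassium affinity of the pump in Xenopus oocytes. The gene is on chromosome 7, 31042513 to 31051467, minus strand (Entrez 57780). It was at 112, 105, 113, 83.6 and 94.4 CPM in SNpc libraries 1, 2, 3, 4 and 6, and at 64.6, 56.2, 95.3, 89.2 and 92.2 CPM in VTA libraries 1, 2, 4, 5 and 6. The groups overlapped, and VTA libraries 1 and 2 were well below the other VTA libraries. The means were 102 ± 12.5 CPM in SNpc and 79.5 ± 17.8 CPM in VTA (SD, n = 5 each). The log2 fold change of 0.35 had a 95% interval of 0.049 to 0.66 and missed the threshold (edgeR adjusted p = 0.0627). Its transcript, 693 bases, is among the shortest of the 6, and with the length and GC trend removed the value was -0.022 (edgeR adjusted p = 0.903). Without SNpc library 4 it was 0.48 (edgeR adjusted p = 0.0150), without VTA library 4 it was 0.43 (edgeR adjusted p = 0.0374) and without VTA library 6 it was 0.41 (edgeR adjusted p = 0.0472), so its side of the threshold rested on single libraries.

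Fxyd1, phospholemman, is a target of protein kinases A and C in heart, and in brain it is known from choroid plexus and glia among other cells. It lies on chromosome 7, 31051678 to 31057199, minus strand (Entrez 56188), beside Fxyd7. Reads were few, 96, 146, 62, 216 and 39 in SNpc libraries 1, 2, 3, 4 and 6 and 234, 97, 120, 123 and 144 in VTA libraries 1, 2, 4, 5 and 6. The groups overlapped widely, with the highest and the lowest level both in SNpc. Its level was 1.76 ± 1.08 CPM in SNpc and 1.99 ± 0.464 CPM in VTA (SD, n = 5 each), a log2 fold change of -0.18 with a 95% interval of -1.26 to 0.91 (edgeR adjusted p = 0.817). The sign turned with glial markers as a covariate (0.21), with all 12 columns (0.083) and without SNpc library 6 (0.041). SNpc library 4, at 3.29 CPM, and VTA library 1, at 2.70 CPM, were the highest of their regions for Fxyd1, and also for the summed markers of oligodendrocytes, of endothelial cells and pericytes, and of blood. SNpc library 4 was also the highest of its region for most of the other marker lists. VTA library 6, second of its region for Fxyd1 at 2.11 CPM, was the lowest there for blood markers (3.58 CPM). The part of RNA of any of these cell types in the Fxyd1 counts was not tested. Ependymal and choroid plexus markers summed to 22.8 to 26.5 CPM in SNpc and 20.9 to 31.3 CPM in VTA, with 0 of the 4 tested called.

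**Figure D4:**
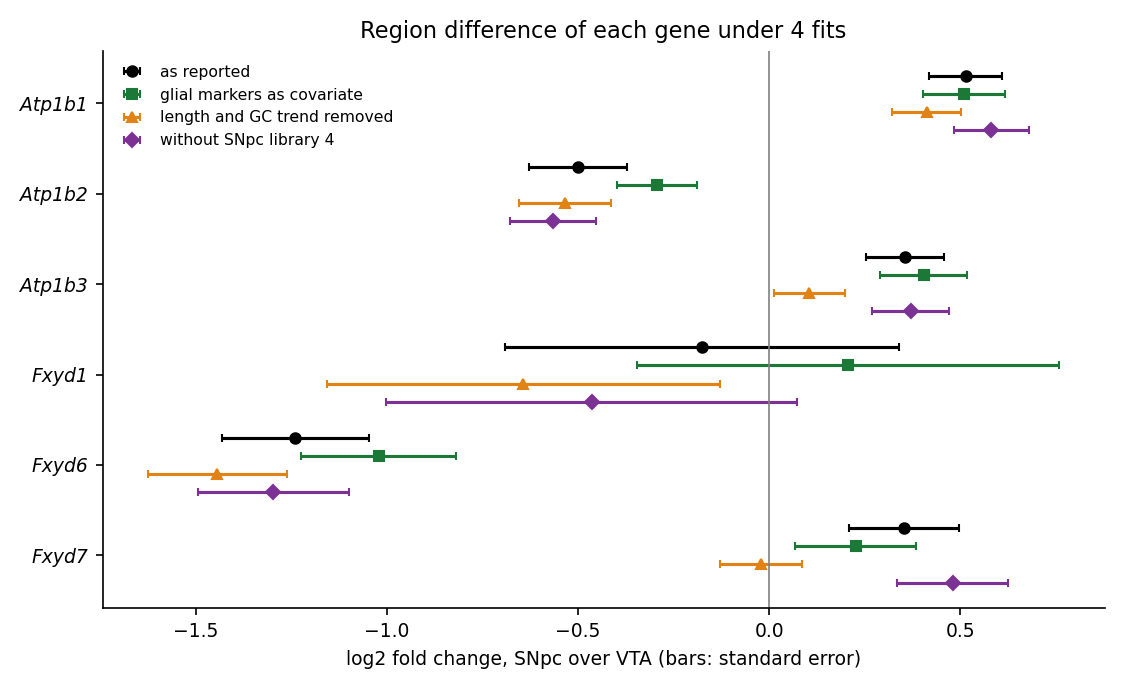
Log2 fold change of each gene, SNpc over VTA, with its standard error, in the fit as reported and in 3 others (glial markers as covariate, length and GC trend removed, SNpc library 4 left out). Atp1b1, Atp1b2 and Fxyd6 keep their side of 0 in all 4, Atp1b3 shrinks to 0.10 and Fxyd7 to -0.022 with the length and GC trend removed, and Fxyd1 has the widest bars.

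Of the Fxyd family, Fxyd7 was the most abundant per length in both regions, at 146 ± 18.0 CPM per kilobase in SNpc and 115 ± 25.7 CPM per kilobase in VTA (n = 5 each, errors are SD). It made up 88.5% ± 4.26 of Fxyd RNA per length in SNpc and 75.5% ± 3.82 in VTA, and Fxyd6 7.45% ± 2.47 in SNpc and 19.0% ± 1.72 in VTA (n = 5 each, errors are SD). With the union of annotated exons as the length, a choice added after the data were seen, Fxyd6 had 3.53% in SNpc and 9.74% in VTA, so its share depended on the length used, and VTA remained the higher region. Fxyd2, the gamma subunit of the kidney pump, was at 2.36 ± 1.30 CPM in SNpc and 2.64 ± 1.24 CPM in VTA (SD, n = 5 each), with a log2 fold change of -0.16 (edgeR adjusted p = 0.822). Fxyd3 had 0 to 42 counts in SNpc and 5 to 34 in VTA and shares 42.5% of its exon bases with the antisense gene Lgi4, which leaves its count uncertain. Fxyd4 had 2 to 36 counts in SNpc and 5 to 165 in VTA, and its log2 fold change of -1.40 ± 1.08 (SE) was not called (edgeR adjusted p = 0.331). Fxyd5, dysadherin, did not pass the count filter and was not tested, with 314 of its 392 counts in VTA library 1.

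Genes that bear on the pump without belonging to these families were listed by role. Of 8 relatives of the pump and of Fxyd genes, 4 passed the count filter and 1 was called, which is 25% against 38.2% of all genes tested. Their median log2 fold change was -0.31 against -0.044 over all genes tested. The called gene was Atp4a, the catalytic subunit of the gastric proton pump, at 59.6 ± 6.19 CPM in SNpc and 38.0 ± 6.70 CPM in VTA (SD, n = 5 each), a log2 fold change of 0.65 (edgeR adjusted p = 0.00118). Of the 4 Nkain genes, whose proteins bind the beta 1 subunit, 1 was higher in VTA and 0 in SNpc (median -0.34). That is also 25%, against 38.2% of all genes tested. Nkain1 was at 96.8 ± 3.84 CPM in SNpc and 123 ± 10.2 CPM in VTA (SD, n = 5 each), a log2 fold change of -0.34 (edgeR adjusted p = 0.00632). Nkain2, not called, was at 66.1 ± 10.2 CPM in SNpc and 64.8 ± 12.3 CPM in VTA (SD, n = 5 each). The log2 fold changes of Nkain3 and Nkain4 were -0.42 and -0.34 and were not called.

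Of 19 genes of pump anchoring, trafficking and modulation, 10 were called, 4 toward SNpc and 6 toward VTA (median log2 fold change -0.055). That is 52.6% of this list, against 38.2% of all genes tested, 17.8% toward SNpc and 20.4% toward VTA. Ankyrins tie the pump to the spectrin skeleton of the membrane. Ank3 was at 260 ± 26.1 CPM in SNpc and 816 ± 134 CPM in VTA (SD, n = 5 each), a log2 fold change of -1.65 (edgeR adjusted p = 1.12e-07). Ank2 changed by -0.88 (edgeR adjusted p = 7.21e-06), and this call ended with the length and GC trend removed. The beta spectrin gene Sptbn1, listed as Spnb2, changed by -1.76 (edgeR adjusted p = 2.91e-04). Toward SNpc, basigin (Bsg), an immunoglobulin-type membrane protein that escorts lactate transporters, changed by 0.58 (edgeR adjusted p = 2.91e-04). Prkacb, a catalytic subunit of protein kinase A, changed by 0.29 (edgeR adjusted p = 0.0156), a call that ended with glial markers as a covariate.

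Sodium-coupled carriers were listed in 2 groups. These groups are not complete. Of the 11 sodium-proton exchangers and sodium-bicarbonate carriers reported here and tested, 1 was higher in SNpc and 4 in VTA (median -0.36), and 3 in all were called with glial markers as a covariate. The 5 called are 45.5% of the list, against 38.2% of all genes tested. The neuronal bicarbonate carrier Slc4a10 was higher in SNpc, by 0.36 on the log2 scale, and Slc4a8, also a bicarbonate carrier of neurons, was not called (0.23). Higher in VTA were Slc4a7 (-0.83), the endosomal exchanger Slc9a9 (-1.05) and Slc4a4 (-1.10), which is also one of the astrocyte markers above. The call of Slc9a9 ended with the glial covariate, and that of Slc4a4 with the length and GC trend removed. Of the 9 carriers of glutamate, GABA, glycine or neutral amino acids reported here, 2 were called, both higher in VTA (median -0.77), and 1 was called with the length and GC trend removed. The 2 called are 22.2% of this list, against 38.2% of all genes tested. The glutamate carrier Slc1a2 was at 276 ± 51.5 CPM in SNpc and 470.2 ± 49.0 CPM in VTA (SD, n = 5 each; log2 fold change -0.77, edgeR adjusted p = 8.43e-05), a call that ended with the length and GC trend removed. The astrocyte carrier Slc1a3 changed by -1.18 (edgeR adjusted p = 0.0277), a call that ended with the glial covariate, with all 12 columns and without any single one of SNpc libraries 1, 2, 3 and 6 or VTA libraries 1 and 4. The neutral amino acid carrier Slc1a5 (log2 fold change -1.39, edgeR adjusted p = 0.0659) and the GABA carrier Slc6a11 (-0.40, edgeR adjusted p = 0.0823) were not called.

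**Figure D5:**
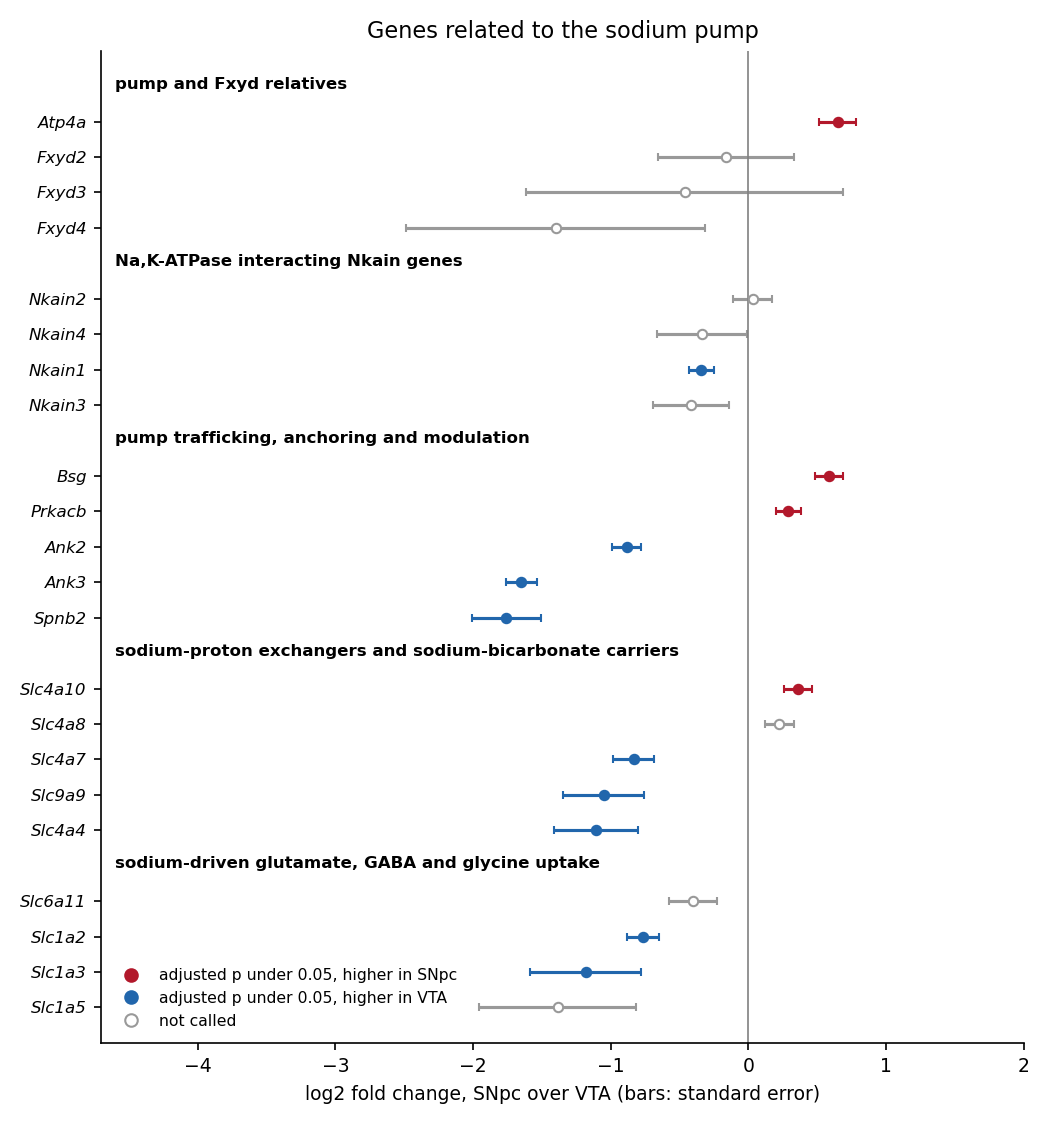
Log2 fold change, SNpc over VTA, with its standard error, for the named genes of 5 lists related to the pump. Filled points passed an adjusted p of 0.05 (red higher in SNpc, blue higher in VTA) and open grey points did not; Ank3 at -1.65 and Spnb2 at -1.76 lie farthest toward VTA among the called genes and Atp4a at 0.65 farthest toward SNpc.

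The genes whose profile over the 10 libraries was most like that of a member were ranked by the root mean square difference of log2 CPM, each profile centred on its own mean, among 9431 genes of mean log2 CPM of at least 3. Nearest to Atp1b1 were the microtubule-associated protein Map4, listed as Mtap4 (difference 0.045), the cap-binding factor Eif4e (0.050) and the syntenin gene Sdcbp (0.063), where the median gene differed by 0.35. Nearest to Atp1b2 were the sodium channel gene Scn1a (0.088), Plekhm2 (0.12) and the secreted Olfm1 (0.13). Nearest to Atp1b3 were Golga7 (0.074), Prrt2 (0.087) and Mkrn1 (0.095), and nearest to Fxyd7 were Wdr18 (0.091), Itm2c (0.093) and the growth cone gene Gap43 (0.093). For Fxyd6, from which the median gene differed by 0.78, the desaturase Scd1 (0.22), the NMDA receptor subunit Grin3a (0.23) and the fatty acid transporter Slc27a1 (0.25) came first. For the sparse Fxyd1, from which the median gene differed by 0.74, the first were Krt1 (0.37), Ano2 (0.38) and Rpp25 (0.41).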

How the data were processed

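The deposited values were raw counts of reads per gene, whole numbers as the authors made them, in 12 columns. The submitters' processing notes name TopHat2 2.0.8 and mm10. How reads were counted (program, annotation, strand) is not given in the sources used here. Per the labels' protocols, cDNA was amplified from a low RNA input. The pairs of columns other than the identical ones differed by a chi-square per gene of 43.1 to 148.

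The 10 libraries entered 1 model in edgeR 4.0.16 (R 4.3.3): filterByExpr, TMM scaling, a robust quasi-likelihood F test of SNpc against VTA with no covariate, and Benjamini-Hochberg adjustment over all 15685 genes tested, called under 0.05. The fit was checked on simulated data. Log2 CPM used a prior count of 2. Library measures were compared by two-sided exact permutation tests. Transcript lengths (longest coding transcript) and gene positions came from GENCODE M21. Alternatives were the 12 columns, other scalings, filters and tools (DESeq2 1.42.0), a glial covariate, a length and GC correction, a replicate block and leaving out each library.

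Named were the 6 genes, other Atp1b and Fxyd rows, per related list the 2 most abundant genes and the 4 of lowest p, and the 3 nearest profiles of each of the 6, placeholder symbols left out; of 3 cell type lists the most abundant marker is named. The 6 genes and the lists were chosen with earlier results of these data known. The catalytic subunit genes and 2 genes of the carrier lists are not reported here and are in no count or median of a list. Columns without a sample numbered 0.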

Additional observations from a re-analysis of the deposited data

How the results depend on the processing

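Under 22 alternatives, the calls and directions of Atp1b1 (log2 fold change 0.40 to 0.58), Atp1b2 (-0.57 to -0.29) and Fxyd6 (-1.45 to -1.02) were kept in all. Atp1b3 lost its call with the length and GC trend removed, at 0.10 with the scale kept and 0.097 with it refitted. Fxyd7 was called at 0.38 with the 12 columns, with DESeq2 size factors and with DESeq2, and at 0.40 with SNpc library 4 and VTA library 1 both left out, an alternative added after the data were seen; it turned to -0.022 and -0.028 with the length and GC trend removed, and gave 0.25 to 0.48 leaving out single libraries. Fxyd1 turned to 0.083 with the 12 columns and to 0.21 with glial markers as a covariate, and ran from -0.46 to 0.041 leaving out single libraries. The number of the 6 genes called was 3 to 5. Same-numbered libraries of the regions did not deviate together (correlations of -0.0723 to 0.0443 over 4 pairs). Because of the identical columns, SNpc library 4 could as well be numbered 5, and VTA library 2 could be numbered 3. SNpc library 4 with VTA library 5 gave -0.106, and SNpc library 3 with VTA library 2 gave 0.0762. Low correlations over so few pairs cannot show whether paired libraries came from the same mice or preparation. The replicate block was fitted on the 4 same-numbered pairs only, without SNpc library 3 and VTA library 5. Under it, 1789 genes were called higher in SNpc, against 2793 in the main fit of all 10 libraries, and 0 Nkain genes. The block fit changed no call among the 6 and ended those of Nkain1, Prkacb and Slc9a9 among the other named genes. Its block and its smaller number of libraries cannot be told apart. With the glial covariate 2 Nkain genes and 3 sodium-proton or bicarbonate carriers were called. Of the uptake carriers, of which 2 were called, 1 was called with the length and GC trend removed (scale kept or refitted), and 1 to 3 leaving out single libraries. Leaving out single libraries gave 2284 to 3317 genes higher in SNpc and 2790 to 3193 in VTA. The cause of these changes was not tested. Fxyd1 to Fxyd5 had at most 375 reads of any of them in a library. Fxyd1 varied by 61.4% of its mean between SNpc libraries and 23.4% between VTA libraries. The upper limit for Atp1b4 covers counting error only, whereas the 95% intervals of log2 fold changes include the spread between libraries.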

Other observations

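Fxyd5 and Fxyd4, which had few reads in most libraries, were most abundant in VTA library 1. Fxyd5 had 1 to 18 counts in the SNpc libraries, 314 in VTA library 1 and 0 to 25 in the other VTA libraries. Fxyd4 had 2 to 36 counts in the SNpc libraries, 165 in VTA library 1 and 5 to 79 in the other VTA libraries. Fibroblast and leptomeningeal markers summed to 1.41 to 5.77 CPM in SNpc, 33.3 CPM in VTA library 1 and 2.65 to 7.67 CPM in the other VTA libraries. Endothelial and pericyte markers summed to 4.04 to 15.1 CPM in SNpc, 91.0 CPM in VTA library 1 and 6.86 to 17.0 CPM in the other VTA libraries. VTA library 5, with the 79 counts of Fxyd4, was the lowest VTA library for both marker sums (2.65 and 6.86 CPM). VTA library 1 was picked out after its values were seen, and the part of such cells in these counts was not tested.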
